A study of Homo sapiens with 6 samples.

Results

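HER2R is a human gastric cancer line that the labels describe as resistant to a HER2-directed T cell bispecific antibody (HER2-TCB), and it was set against the sensitive line MKN45 across the whole transcriptome. Its source name is MKN45-HER2, and the labels do not say whether that name means HER2R itself or a modified MKN45 line from which it was raised. Each line had 2 libraries of total RNA, numbered 1 and 2, so 4 of the 6 libraries of the study enter the comparison. The other 2 came from CEAR (source name MKN45-CEAR), a line resistant to a CEACAM5-directed T cell bispecific antibody, which served as a second reference. The 3 lines grew in DMEM/F-12 with fetal bovine serum, and the labels list no treatment for any of them. HER2R is 1 line, nothing says that its libraries came from separate cultures, and p-values here measure the spread between libraries, which may be technical. All 29744 gene symbols of the count table were considered, of which 14958 passed a filter on low counts and were tested.

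A T cell bispecific antibody (TCB) ties a tumour cell to a T cell by holding an antigen on the former and CD3 on the latter, and the T cell then kills the cell it is tied to. HER2, encoded by ERBB2, is a receptor tyrosine kinase that is amplified in a share of gastric tumours, and CEACAM5 is a glycoprotein of the surface of gut epithelium. Whether tumour cells can be killed this way depends on antigen level, on adhesion and contact with the T cell, and on signalling inside the target cell. Gastric cancer cells also vary along a scale from epithelial to mesenchymal, and genes of matrix, cytoskeleton and growth factor signalling move along it.

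Levels are given as CPM, a gene's counts relative to the scaled total of its library, and since they are not divided by gene length they are compared between libraries and not between genes. Differences are fitted log2 fold changes of HER2R against MKN45 with their standard errors (SE). The "edgeR adjusted p" is the p-value of edgeR's quasi-likelihood test after Benjamini-Hochberg adjustment over the 14958 tested genes, and a gene is said to have risen or fallen where this is under 0.05. The antigens of both antibodies were examined first. ERBB2 was at 103 and 126 CPM in the libraries of MKN45, 88.2 and 78.8 CPM in those of HER2R and 75.6 and 109 CPM in those of CEAR. Both HER2R libraries lay below both MKN45 libraries, and the log2 fold change of -0.46 (SE 0.206) did not pass the test (edgeR adjusted p = 0.203, and 0.0582 with the library number as a block in the model). The libraries of the 2 lines did not overlap in 57.1% of all tested genes, so a lack of overlap is common here. CEACAM5 was at 1007 and 2441 CPM in MKN45 and 1036 and 2289 CPM in HER2R, so that the libraries numbered 2 were the higher ones in both lines and the lines overlapped. Its log2 fold change was -0.05 (SE 0.804, edgeR adjusted p = 0.974), and in CEAR it was at 2.34 and 15.9 CPM.

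Library totals ran from 39657353 to 57964246 counts. Of 12 gastric epithelium markers 11 were tested, and the summed level of the list was 10160 and 12670 CPM in MKN45 against 11640 and 15420 CPM in HER2R, while GKN1 had 0 counts in all 6 libraries. No marker of T, NK, B or endothelial cells passed the filter, and CD68 and COL1A1 were the tested members of the myeloid and fibroblast lists (log2 fold changes -1.62 and 2.22, edgeR adjusted p = 0.136 and 0.0564). Both passed the test with the library number as a block (edgeR adjusted p = 0.0125 and 0.000827) and by DESeq2 (adjusted p = 0.0354 and 0.00485). The summed level of the 6 fibroblast markers was 1.88 and 0.978 CPM in MKN45 and 7.67 and 3.54 CPM in HER2R, with COL3A1 and DCN at 0 counts in all 6 libraries. In a principal component analysis the first component (38.7% of the variance) set HER2R and CEAR at opposite ends with MKN45 between them, the second (33.1%) set MKN45 apart from both, and the third (17.9%) separated the libraries numbered 1 from those numbered 2 in each line.

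The 250 bases just upstream of the start sites of 6 genes with large changes, chosen after their values were seen, are printed to show how unlike the promoters of such genes are. The sequences are RefSeq's, of GRCh38.p14, each 5′ to 3′ on the strand of its gene, with every CG dinucleotide (the site of DNA methylation, the same on both strands) in capitals. The genes that rose are MSN (chrX:65588127-65588376, + strand), AKAP12 (chr6:151239717-151239966, + strand) and RGS2 (chr1:192808789-192809038, + strand). Those that fell are ALDH1A1 (chr9:72953054-72953303, - strand), FUT9 (chr6:96015724-96015973, + strand) and PRSS12 (chr4:118353004-118353253, - strand).
MSN: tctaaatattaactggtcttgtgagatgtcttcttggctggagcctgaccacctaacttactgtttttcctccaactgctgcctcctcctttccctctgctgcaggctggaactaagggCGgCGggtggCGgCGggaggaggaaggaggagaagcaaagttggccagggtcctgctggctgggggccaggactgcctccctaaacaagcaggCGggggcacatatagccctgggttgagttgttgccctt
AKAP12: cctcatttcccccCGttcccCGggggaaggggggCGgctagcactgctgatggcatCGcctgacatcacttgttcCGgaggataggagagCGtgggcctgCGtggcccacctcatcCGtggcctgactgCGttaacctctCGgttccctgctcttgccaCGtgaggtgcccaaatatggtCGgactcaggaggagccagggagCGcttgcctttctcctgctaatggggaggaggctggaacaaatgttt
RGS2: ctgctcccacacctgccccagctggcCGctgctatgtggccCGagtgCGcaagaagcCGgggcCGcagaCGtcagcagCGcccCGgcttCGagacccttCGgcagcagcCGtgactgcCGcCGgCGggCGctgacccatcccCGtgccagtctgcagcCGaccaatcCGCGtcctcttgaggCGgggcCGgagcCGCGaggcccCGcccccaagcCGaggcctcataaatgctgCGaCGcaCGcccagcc
ALDH1A1: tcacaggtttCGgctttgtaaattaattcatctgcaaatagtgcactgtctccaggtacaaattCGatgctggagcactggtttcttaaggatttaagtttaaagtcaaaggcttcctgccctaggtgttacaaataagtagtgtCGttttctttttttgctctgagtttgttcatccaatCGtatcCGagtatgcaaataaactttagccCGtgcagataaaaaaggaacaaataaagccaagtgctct
FUT9: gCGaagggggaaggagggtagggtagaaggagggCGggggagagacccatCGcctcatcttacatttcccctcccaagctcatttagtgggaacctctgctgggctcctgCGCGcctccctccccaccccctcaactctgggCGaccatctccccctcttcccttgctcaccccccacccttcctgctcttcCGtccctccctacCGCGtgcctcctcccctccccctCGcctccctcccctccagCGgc
PRSS12: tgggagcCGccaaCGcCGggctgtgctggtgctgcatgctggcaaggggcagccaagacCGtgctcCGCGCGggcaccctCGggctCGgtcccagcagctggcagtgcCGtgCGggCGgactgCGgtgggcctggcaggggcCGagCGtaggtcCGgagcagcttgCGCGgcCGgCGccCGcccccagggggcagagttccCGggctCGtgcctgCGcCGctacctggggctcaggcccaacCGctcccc
CG occurred 5 times in the window of MSN, 13 times in that of AKAP12 and 28 times in that of RGS2, and 6, 11 and 26 times in those of ALDH1A1, FUT9 and PRSS12. Over the same stretch of all 27305 promoters in the table, 93.6% held at least 1 CG, the median was 11 and the quartiles were 3 and 23. MSN and ALDH1A1 thus lay below the median in either direction of change, and RGS2 and PRSS12 above the upper quartile, with RGS2 among the 15.5% and PRSS12 among the 19.2% of windows with as many or more. Methylation was not analysed here, and since 68.9% of tested genes had a window, no comparison of called with other genes was made.

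Between HER2R and MKN45, 731 genes rose (4.89% of those tested) and 726 fell (4.85%), 9.74% in all. The rises were the larger ones: 487 genes rose by more than 2-fold (3.26%) and 351 fell by more than 2-fold (2.35%), while the median over all tested genes was -0.017. Against CEAR, 1095 genes were higher in HER2R (7.32%) and 1010 lower (6.75%), 14.1% in all. Called shares were smallest at the ends of the range of levels, at 4.94% of the 2066 genes under 1 CPM and 3.57% of the 56 genes over 1000 CPM, and largest between 10 and 100 CPM, at 11.2% of 7364. Between 1 and 10 CPM 191 genes rose and 124 fell, whereas between 10 and 100 CPM 385 rose and 442 fell. Of 12484 protein-coding genes 10.7% were called, against 8 of 145 long intergenic RNAs and 5 of 196 antisense RNAs.

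**Figure D1:**
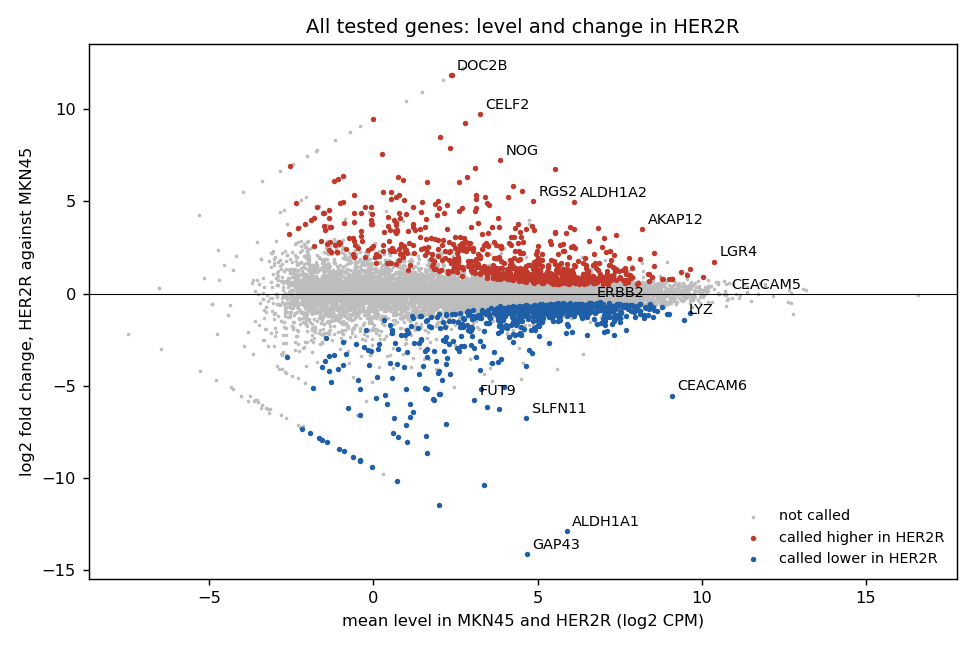
Each tested gene is a point, with its mean level in MKN45 and HER2R on the horizontal axis (log2 CPM) and its fitted log2 fold change on the vertical axis; red points are genes called higher in HER2R and blue points genes called lower. The named genes include the antigens ERBB2 and CEACAM5, which lie among the genes not called.

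The number of calls rested on the model and on each library. With the library number as a block, 2419 genes were higher (16.2%) and 2621 lower (17.5%), 33.7% in all, and every one of the 1457 genes called without the block was among them. Against CEAR the block gave 2942 higher and 2775 lower. By level, the block called 543 higher and 474 lower between 1 and 10 CPM and 1289 and 1579 between 10 and 100 CPM. When single libraries were left out, 140 to 587 genes were called higher and 49 to 549 lower, the fewest without HER2R library 2. Of the 1457 genes 463 were still called with library 1 of MKN45 left out and 338 with its library 2 left out, and leaving out library 1 or 2 of HER2R kept 210 and 187, all in the same direction. Without a CEAR library, 1048 and 1070 were.

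Genes that changed were not spread evenly over the chromosomes. On chromosome 16, 93 of 610 tested genes fell and 10 rose, on chromosome 7, 81 of 656 fell and 13 rose, and on chromosome 13, 43 of 231 fell and 8 rose. Chromosome 1 showed the opposite, with 96 of 1374 genes higher and 16 lower, as did chromosome 17, with 61 of 833 higher and 9 lower. With the block the falls and rises were 285 and 21 on chromosome 16, 251 and 38 on chromosome 7 and 117 and 16 on chromosome 13, and the rises and falls 365 and 112 on chromosome 1 and 210 and 73 on chromosome 17. Positions came from GENCODE 29 on GRCh38, which placed 13264 of the tested genes by their symbols. The other 1694 were counted in no stretch, so counts of list members inside stretches are lower bounds. The genome was cut into windows of 10 Mb, and 230 windows held 20 or more tested genes (median 41). In 13 of them 15% or more of the genes rose, in 25 of them 15% or more fell, and neighbouring windows of a kind formed 9 stretches of 2 or more, windows with under 20 genes being passed over. The stretches were chosen by these calls, so the counts inside them are a description with no test of their own.

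**Figure D2:**
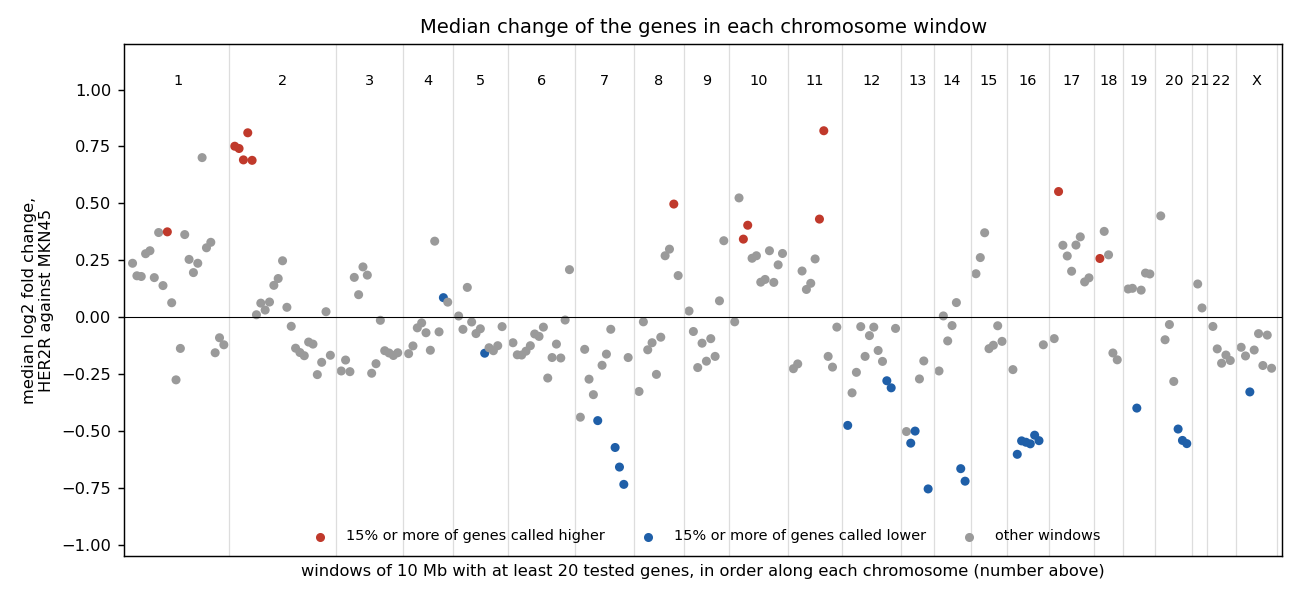
Each point is a window of 10 Mb with at least 20 tested genes, in order along chromosomes 1 to 22 and X, and the vertical axis is the median log2 fold change of its genes, HER2R against MKN45. Red and blue mark windows where 15% or more of the genes were called higher or lower; the red points at the start of chromosome 2 and the blue points along chromosome 16 form the longest stretches.

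The first 50 Mb of chromosome 2 held the most rises. There 75 of 193 tested genes rose and 1 fell, the median log2 fold change was 0.725, and 93.3% of the genes lay above 0. The block called 151 of them higher and 5 lower, and with 1 library left out 5 to 50 were called higher, the fewest without HER2R library 2. By window 14 of 25, 12 of 25, 18 of 65, 17 of 41 and 14 of 37 genes rose. The median over these genes, as log2(CPM + 0.5) less the mean of MKN45, was 0.699 in HER2R library 1 and 0.695 in library 2, but 0.0312 and -0.0181 in the CEAR libraries, and 75 genes were higher in HER2R than in CEAR. Both HER2R libraries were therefore high and neither CEAR library was. EPAS1, which encodes the hypoxia-inducible factor HIF-2 alpha, and RPS7, a protein of the small ribosomal subunit, lie here. EPAS1 was at 128 and 112 CPM in MKN45 and 271 and 304 CPM in HER2R (log2 fold change 1.26, SE 0.144, edgeR adjusted p = 0.00671). RPS7 was at 354 and 304 CPM in MKN45 and 529 and 622 CPM in HER2R (log2 fold change 0.81, SE 0.155, edgeR adjusted p = 0.0278). EPAS1 missed the threshold when HER2R library 2 was left out (edgeR adjusted p = 0.058). Leaving out any 1 of the 6 libraries took RPS7 above the threshold (edgeR adjusted p from 0.054 to 0.15).

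Chromosome 16 from 10 to 80 Mb was the longest stretch of falls, with 84 of 385 genes lower and 5 higher (236 and 11 with the block, and 3 to 59 and 0 to 4 with 1 library left out). Its median was -0.563, and 89.4% of its genes lay below 0. The 2 ends of the chromosome had fewer calls and weaker medians in the same direction. From 0 to 10 Mb 6 of 145 genes fell (median -0.23, 35 lower and 3 higher with the block). From 80 to 90 Mb 3 of 78 fell and 3 rose (median -0.121, 14 lower and 7 higher with the block). Against CEAR, 65 and 50 genes of these ends were lower in HER2R, and 2 and 1 higher. In the stretch itself the median by library was -0.486 and -0.527 in HER2R and 0.055 and -0.00792 in CEAR, and 112 genes of the stretch were lower in HER2R than in CEAR. Among its members are SF3B3, a core protein of the spliceosome, ABCC1, a drug and glutathione conjugate exporter, and ACSM3, a mitochondrial fatty acid ligase. ABCC1 was at 396 and 331 CPM in MKN45 and 207 and 176 CPM in HER2R (log2 fold change -0.92, SE 0.156, edgeR adjusted p = 0.0208). SF3B3 was at 449.8 and 353 CPM in MKN45 and 256 and 214 CPM in HER2R (log2 fold change -0.77, SE 0.177, edgeR adjusted p = 0.0445). ACSM3 fell further, from 26.5 and 30.02 CPM in MKN45 to 9.94 and 9.18 CPM in HER2R (log2 fold change -1.56, SE 0.162, edgeR adjusted p = 0.00501). The call of ABCC1 was lost without MKN45 library 1 or HER2R library 1 or 2 (edgeR adjusted p from 0.074 to 0.14). SF3B3 was no longer called with any 1 of the 6 libraries left out (edgeR adjusted p from 0.068 to 0.22). ACSM3 missed the threshold when HER2R library 2 was left out (edgeR adjusted p = 0.055).

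The other stretches differed in where CEAR lay. On chromosome 7 from 120 to 150 Mb 39 of 128 genes fell (median -0.706), and the medians by library were -0.629 and -0.603 in HER2R and -0.485 and -0.505 in CEAR, and 5 genes were lower in HER2R than in CEAR. Chromosome 13 from 30 to 50 Mb was alike, with 15 of 76 genes lower (median -0.529), -0.336 and -0.354 in the CEAR libraries, and 4 genes lower and 2 higher in HER2R than in CEAR. On chromosome 14 from 90 to 110 Mb 31 of 102 genes fell (median -0.694), and there 39 genes were lower and 6 higher than in CEAR. Chromosome 20 from 40 to 70 Mb (31 of 160 lower, median -0.524), chromosome 12 from 110 to 130 Mb (22 of 136 lower, median -0.305), chromosome 11 from 70 to 100 Mb (25 of 122 higher, median 0.452) and chromosome 10 from 20 to 40 Mb (14 of 54 higher, median 0.357) made up the rest. In the CEAR libraries the medians were -0.0579 and 0.00784 on chromosome 14, 0.0376 and -0.0176 on chromosome 20 and -0.0489 and 0.0735 on chromosome 11. On chromosome 12 they were -0.146 and -0.157, against -0.245 and -0.331 in HER2R, and on chromosome 10 they were 0.138 and 0.067, against 0.298 and 0.39. Together the 9 stretches held 10.2% of the placed genes. They held 127 of the 687 placed genes that rose (18.5%) and 228 of the 673 placed genes that fell (33.9%). Outside them 560 of 11908 genes rose (4.7%) and 445 fell (3.74%), with a median of 0.00127. Counted as outside were 11 single windows with 15% or more called in 1 direction. Among these was chromosome 13 from 110 to 120 Mb, where 13 of 27 genes fell (median -0.754). Over the settings tried the medians ran from 0.688 to 0.749 on chromosome 2 and from -0.581 to -0.502 on chromosome 16, while the counts of calls moved far more. With 1 library left out, 2 to 30 genes were lower on chromosome 7, 1 to 10 on chromosome 13, 1 to 25 on chromosome 14, 1 to 24 on chromosome 20 and 0 to 17 on chromosome 12, and 4 to 21 were higher on chromosome 11 and 3 to 8 on chromosome 10. The fewest in these 7 stretches came with a HER2R library left out. With the block the counts were 83, 41, 70, 83 and 54 lower and 61 and 23 higher, in the same order. DNA copy number was not analysed here, and its part in these stretches was not tested.

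**Figure D3:**
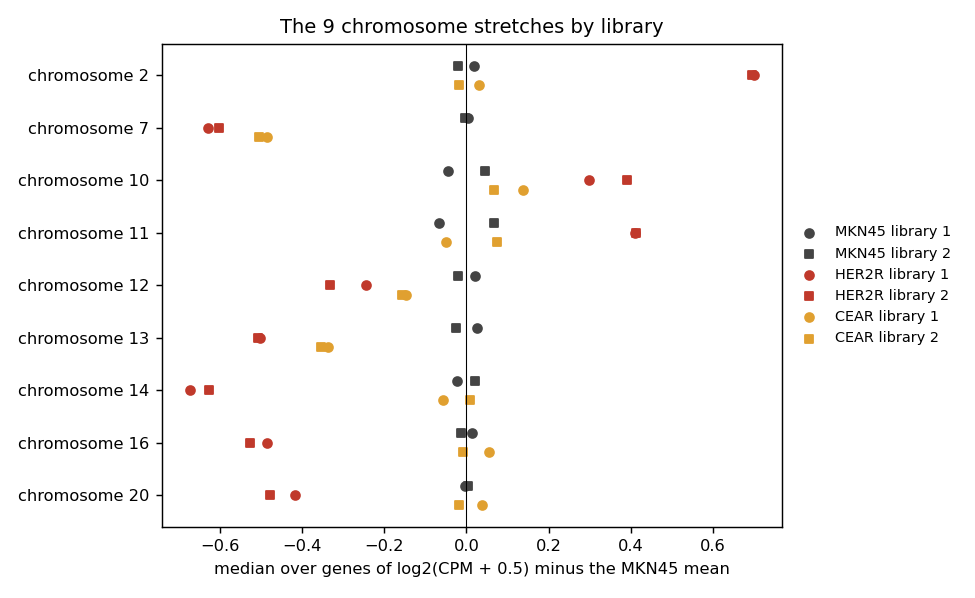
For each of the 9 stretches the horizontal axis gives the median over its genes of log2(CPM + 0.5) less the MKN45 mean, 1 point per library (circles library 1, squares library 2). HER2R (red) lies at 0.699 and 0.695 on chromosome 2 and at -0.486 and -0.527 on chromosome 16, where CEAR (yellow) lies near 0, while on chromosomes 7 and 13, and by less on chromosomes 10 and 12, both CEAR libraries lie on the side of HER2R.

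Genes that fell inside these stretches included regulators of growth and differentiation. AKT1, the kinase downstream of phosphoinositide 3-kinase, lies in the chromosome 14 stretch and was at 204 and 195 CPM in MKN45 and 105 and 122 CPM in HER2R (log2 fold change -0.82, edgeR adjusted p = 0.0194). RB1, the retinoblastoma protein that holds cells before S phase, lies in the chromosome 13 stretch and was at 84.2 and 84.2 CPM in MKN45 and 41.9 and 44.8 CPM in HER2R (log2 fold change -0.96, edgeR adjusted p = 0.00987). HNF4A, a nuclear receptor of gut and liver epithelium, lies in the chromosome 20 stretch and was at 153 and 166 CPM in MKN45 and 91.8 and 85.6 CPM in HER2R (log2 fold change -0.85, edgeR adjusted p = 0.0127). In each of these 3 genes both HER2R libraries lay below both MKN45 libraries, and the lines did not overlap in 57.1% of all tested genes. AKT1, RB1 and EPAS1 were picked for their function after their values were seen. Leaving out any 1 library of HER2R or MKN45 took AKT1 above the threshold (edgeR adjusted p from 0.068 to 0.14). The call of RB1 was lost without HER2R library 1 or 2 (edgeR adjusted p from 0.078 to 0.09). HNF4A was no longer called with MKN45 library 2 or HER2R library 1 or 2 left out (edgeR adjusted p from 0.061 to 0.11).

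The largest changes were near on-off switches. GAP43, a growth cone protein of neurons, was at 66.8 and 35.4 CPM in MKN45 and had 0 counts in HER2R and in CEAR, which made it at least 1387-fold lower in HER2R against a floor of 3 counts over the group. A1CF, the RNA-binding cofactor of apolipoprotein B editing, was at 4.32 and 11.7 CPM in MKN45 and 0 counts in the other 4 libraries, at least 198-fold lower. In all, 9 genes with 1 CPM or more in MKN45 had 0 counts in HER2R (at least 27.3- to 1387-fold lower), 8 of them were called, and 5 also had 0 counts in CEAR. In the other direction, DOC2B, which senses calcium at vesicle fusion, had 0 counts in MKN45 and was at 6.52 and 14.03 CPM in HER2R, at least 344-fold higher. SNAR-A2, a small noncoding RNA with near-identical genomic copies among which reads may be split, had 0 counts in MKN45 and CEAR and was at 8.64 and 12.2 CPM in HER2R, at least 349-fold higher. Likewise 11 genes had 0 counts in MKN45 and 1 CPM or more in HER2R (at least 41.0- to 449-fold higher), but 3 were called, and several of the others, copies of the U1 small nuclear RNA among them, had counts in 1 HER2R library only. The edgeR adjusted p was 0.00572 for GAP43, 0.0267 for A1CF, 0.00813 for DOC2B and 0.00662 for SNAR-A2. A1CF missed the threshold when HER2R library 1 or 2 was left out (edgeR adjusted p = 0.12). Leaving out HER2R library 2 took SNAR-A2 above the threshold (edgeR adjusted p = 0.054).

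A further 18 genes at 1 CPM or more in either line kept 1 or 2 counts in the other, and the 4 with the highest ratios are given here. Their fitted log2 fold changes, like those of genes at 0 counts, depend on the prior count of the fit and are left out. ALDH1A1, a retinaldehyde dehydrogenase used as a stem cell marker, was at 76.8 and 159.6 CPM in MKN45 and had 1 count in HER2R, a ratio of 8870 with a 95% counting interval of 1592 to 350400, and in CEAR it was at 3.204 and 8.02 CPM. SOSTDC1, a secreted antagonist of BMP and WNT ligands, was at 23.4 and 17.7 CPM in MKN45, had 1 count in HER2R (ratio 1639, interval 293.9 to 64770) and 0 counts in CEAR. CELF2, an RNA-binding splicing factor, had 2 counts in MKN45 and was at 22.9 and 15.4 CPM in HER2R, a ratio of 960.6 (265.5 to 7940). ALDH1A1 and SOSTDC1 were thus low in both resistant lines and CELF2 was high in HER2R, with 0.0241 and 0.742 CPM in CEAR. CD74, which chaperones MHC class II molecules, had 2 counts in MKN45 and was at 8.66 and 19.1 CPM in HER2R and 16.8 and 32.3 CPM in CEAR, a ratio of 695.7 (192.1 to 5752) for HER2R against MKN45. The edgeR adjusted p was 0.00222 for ALDH1A1, 0.00206 for SOSTDC1, 0.00222 for CELF2 and 0.00268 for CD74. Intervals and floors cover counting error only.

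Other large rises were in genes with various roles. NOG, the secreted BMP antagonist noggin, was at 0.124 and 0.273 CPM in MKN45 and 34.6 and 22.9 CPM in HER2R (log2 fold change 7.22, SE 0.421, edgeR adjusted p = 0.00173). ARSJ, an arylsulfatase, was at 0.124 and 0.182 CPM in MKN45 and 16.3 and 17.5 CPM in HER2R (log2 fold change 6.79, SE 0.458, edgeR adjusted p = 0.00206). PALMD, which encodes palmdelphin, was at 0.159 and 0.205 CPM in MKN45 and 13.5 and 10.5 CPM in HER2R (log2 fold change 6.04, SE 0.404, edgeR adjusted p = 0.00187). These 3 genes were low in CEAR, at 0.313 and 0.2696, 0.1205 and 0.472 and 0.0482 and 0.157 CPM. SHISA2, an antagonist of FGF and WNT receptor maturation, and MYEF2, a DNA- and RNA-binding repressor, rose in HER2R by log2 fold changes of 7.87 (SE 0.646, edgeR adjusted p = 0.0019) and 6.29 (SE 0.446, edgeR adjusted p = 0.00206). Both were also present in CEAR, SHISA2 at 9.28 and 8.83 CPM and MYEF2 at 8.82 and 5.37 CPM, and neither passed the test between HER2R and CEAR (edgeR adjusted p = 0.805 and 0.0655). VIM, the mesenchymal intermediate filament vimentin, was at 0.0886 and 0.09096 CPM in MKN45 and 8.28 and 3.95 CPM in HER2R (log2 fold change 6.05, SE 0.744, edgeR adjusted p = 0.0075), and its antisense gene VIM-AS1 was called too. The libraries mark strand, but how reads were counted is not given in the sources used here, so the 2 genes cannot be told apart. The call of VIM was lost without MKN45 library 1 or 2 (edgeR adjusted p = 0.051). NOG had a log2 fold change of 7.82 without MKN45 library 2. For SHISA2 the log2 fold change was 7.24 without HER2R library 1. VIM changed on the log2 scale by 5.42 without HER2R library 1. Without MKN45 library 1, MKN45 kept 1 count of SHISA2, and no fold is given.

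Large falls included those of SLFN11, WNT16 and FUT9. SLFN11, which blocks stressed replication forks and is tied to response to DNA-damaging drugs, was at 57.1 and 42.9 CPM in MKN45 and 0.484 and 0.434 CPM in HER2R (log2 fold change -6.76, SE 0.287, edgeR adjusted p = 0.00078), with 7.300 and 6.34 CPM in CEAR. WNT16, a WNT ligand, was at 19.6 and 23.7 CPM in MKN45 and 0.306 and 0.306 CPM in HER2R (log2 fold change -6.13, SE 0.308, edgeR adjusted p = 0.000997), with 0.169 and 0.135 CPM in CEAR. FUT9, the fucosyltransferase that makes Lewis X on glycans, was at 16.6 and 16.3 CPM in MKN45 and 0.306 and 0.281 CPM in HER2R (log2 fold change -5.79, SE 0.224, edgeR adjusted p = 0.000753). FUT9 went the other way in CEAR, at 46.95 and 46.8 CPM, and the difference between HER2R and CEAR was -7.31 (edgeR adjusted p = 0.000192). In all 3 genes the 2 libraries of a line were close to each other. The naming rule took the largest changes only from genes whose HER2R and MKN45 libraries did not overlap.

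Among called genes the largest rise as a difference in CPM, a measure that grows with gene length too, was in LGR4, the R-spondin receptor that strengthens WNT signalling. It was at 651 and 579 CPM in MKN45, 2023 and 2028 CPM in HER2R and 690.2 and 618 CPM in CEAR, and rose by 1.72 on the log2 scale (SE 0.178, edgeR adjusted p = 0.00501). AKAP12, a scaffold for protein kinases A and C, was at 60.95 and 34.1 CPM in MKN45 and 454 and 619.8 CPM in HER2R (log2 fold change 3.50, SE 0.317, edgeR adjusted p = 0.00366), with 98.1 and 86.7 CPM in CEAR. HER2R stood above both other lines in each of these genes. CD55, which protects cells from complement, was at 111 and 161 CPM in MKN45, 473 and 763 CPM in HER2R and 117 and 231 CPM in CEAR (log2 fold change 2.18, SE 0.396, edgeR adjusted p = 0.0248). GDF15, a stress-induced cytokine, was at 483 and 437 CPM in MKN45 and 998 and 1288 CPM in HER2R (log2 fold change 1.31, SE 0.185, edgeR adjusted p = 0.0126), and MCL1, an inhibitor of apoptosis, at 468 and 351 CPM in MKN45 and 929 and 889 CPM in HER2R (log2 fold change 1.15, SE 0.202, edgeR adjusted p = 0.023). PAK1, a kinase of the actin cytoskeleton in the chromosome 11 stretch, was at 219 and 175 CPM in MKN45 and 462 and 629 CPM in HER2R (log2 fold change 1.47, SE 0.216, edgeR adjusted p = 0.0138). Both HER2R libraries were above both MKN45 libraries in each of these 6 genes, and the lines did not overlap in 57.1% of all tested genes. CD55 was no longer called with any 1 library of HER2R or MKN45 left out (edgeR adjusted p from 0.071 to 0.12). GDF15 and PAK1 missed the threshold when MKN45 library 2 or HER2R library 2 was left out (edgeR adjusted p from 0.068 to 0.085). Leaving out MKN45 library 2 or HER2R library 1 or 2 took MCL1 above the threshold (edgeR adjusted p from 0.09 to 0.13).

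On the same measure, and again among called genes, the largest fall was in CEACAM6, a neighbour of CEACAM5 on chromosome 19 in the same family of surface glycoproteins. CEACAM6 was at 801 and 1325 CPM in MKN45, 8.23 and 37.5 CPM in HER2R and 8.697 and 58.2 CPM in CEAR (log2 fold change -5.54, SE 1.11, edgeR adjusted p = 0.0314). HER2R against CEAR did not pass the test in CEACAM6 (difference -0.55, edgeR adjusted p = 0.728) and did in CEACAM5 (difference 7.51, edgeR adjusted p = 0.0125), where HER2R was the higher line. Reads from near-identical stretches of the CEACAM genes may be split between them. LYZ, the secreted enzyme lysozyme, was at 905 and 1129 CPM in MKN45 and 362 and 399.9 CPM in HER2R (log2 fold change -1.42, SE 0.233, edgeR adjusted p = 0.0192), and stayed high in CEAR at 827 and 1192 CPM. MLEC, a lectin of the endoplasmic reticulum, was at 1063 and 1072 CPM in MKN45 and 489 and 556 CPM in HER2R (log2 fold change -1.03, SE 0.185, edgeR adjusted p = 0.0241). MLEC lies in the lowered stretch of chromosome 12. The calls of CEACAM6 and MLEC were lost without any 1 library of HER2R or MKN45 (edgeR adjusted p from 0.062 to 0.16). LYZ was no longer called with MKN45 library 2 or HER2R library 1 or 2 left out (edgeR adjusted p from 0.071 to 0.14).

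Gene lists by function and family were used to read the rest, 85 lists with a tested member each, of which 35 had 8 or more tested members and a called share of at least 1.5 times the 9.74% of all genes. Lists share members, so their counts are not independent, and they are given by count and median alone. Counts of rises and falls are to be read against the 4.89% of all tested genes that rose and the 4.85% that fell. Those with the block are to be read against the 16.2% that it called higher and the 17.5% that it called lower.

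**Figure D4:**
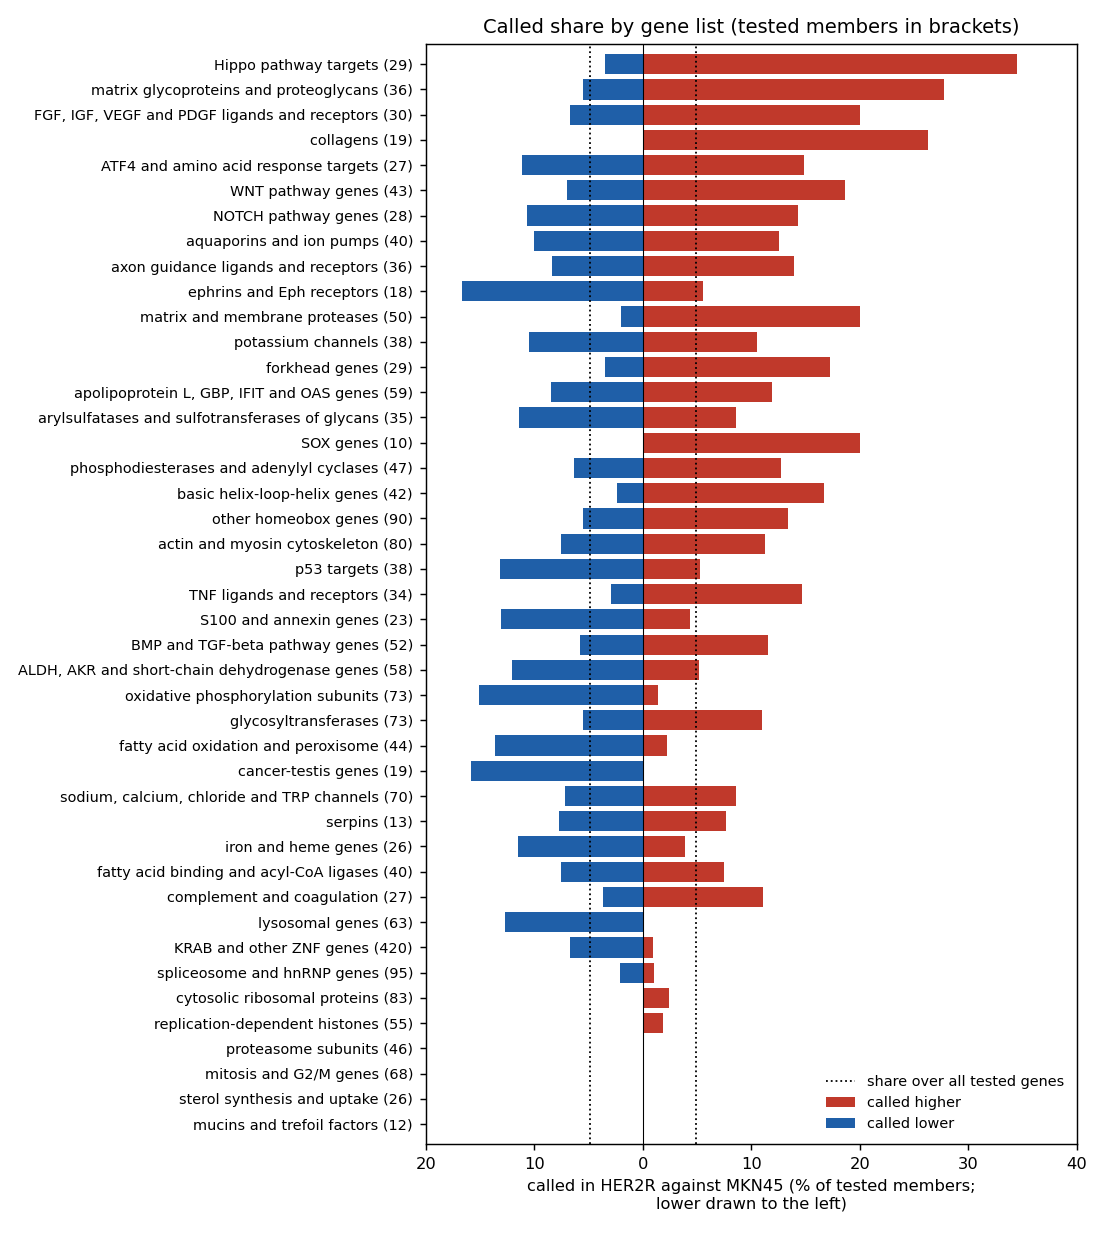
Bars give the share of tested members of a list called higher (red, to the right) and lower (blue, to the left) in HER2R, with the number of tested members in brackets; dotted lines mark the shares over all tested genes, 4.89% and 4.85%. The Hippo target, matrix glycoprotein, collagen and protease lists lean to higher calls, and the oxidative phosphorylation, lysosomal and zinc finger lists to lower calls.

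Most extracellular matrix genes that changed rose. Of 36 matrix glycoproteins and proteoglycans 10 rose and 2 fell (median 0.358), of 19 collagens 5 rose (median 0.862), and of 50 matrix and membrane proteases 10 rose and 1 fell (median 0.333), against 4.89% higher and 4.85% lower over all genes. Among these rises 3 glycoproteins, 2 proteases and 0 collagens lie in the raised chromosome stretches. With the block 14 glycoproteins, 11 collagens and 16 proteases were called higher and 3 glycoproteins and 9 proteases lower, and with single libraries left out 3 to 9 glycoproteins, 1 to 5 collagens and 2 to 11 proteases were called higher. IGFBP1, a secreted binder of insulin-like growth factors, was at 0.655 and 0.659 CPM in MKN45, 36.97 and 37.5 CPM in HER2R and 3.18 and 2.65 CPM in CEAR (log2 fold change 5.82, SE 0.232, edgeR adjusted p = 0.000753). COL12A1, a collagen that binds to fibrils, was at 1.05 and 0.637 CPM in MKN45, 134 and 50.2 CPM in HER2R and 8.22 and 12.4 CPM in CEAR (log2 fold change 6.74, SE 0.622, edgeR adjusted p = 0.00371). MFAP2, a microfibril protein, was at 0.815 and 0.5003 CPM in MKN45 and 17.1 and 16.6 CPM in HER2R (log2 fold change 4.64, SE 0.286, edgeR adjusted p = 0.00187). The other collagens that rose stayed low in level, COL16A1 at 3.46 and 2.58 CPM, COL5A1 at 3.92 and 2.22 CPM and COL6A2 at 1.86 and 2.35 CPM in HER2R, with COL4A1 as the last. Among proteases the serine protease PRSS23 was at 29.7 and 37.7 CPM in MKN45 and 332 and 267 CPM in HER2R (log2 fold change 3.15, SE 0.215, edgeR adjusted p = 0.00206), and ADAM28, a membrane metalloprotease, at 0.0709 and 0.0227 CPM in MKN45 and 2.34 and 2.47 CPM in HER2R (log2 fold change 5.52, SE 0.686, edgeR adjusted p = 0.00427). PRSS12, the neuronal protease neurotrypsin, was the fall, from 21.7 and 23.8 CPM in MKN45 to 1.55 and 1.73 CPM in HER2R (log2 fold change -3.79, SE 0.278, edgeR adjusted p = 0.00222). The 2 glycoproteins that fell were glypicans, heparan sulfate proteoglycans of the cell surface: GPC3 was at 24.7 and 21.6 CPM in MKN45 and 2.88 and 2.37 CPM in HER2R (log2 fold change -3.14, edgeR adjusted p = 0.00491) and GPC1 at 165 and 136 CPM in MKN45 and 53.7 and 63.6 CPM in HER2R (log2 fold change -1.36, edgeR adjusted p = 0.00679). COL16A1 missed the threshold when MKN45 library 1 or HER2R library 1 or 2 was left out (edgeR adjusted p from 0.057 to 0.079). Leaving out any 1 library of HER2R or MKN45 took COL5A1 and COL6A2 above the threshold (edgeR adjusted p from 0.058 to 0.14). The call of GPC3 was lost without HER2R library 2 (edgeR adjusted p = 0.057). GPC1 was no longer called with HER2R library 1 left out (edgeR adjusted p = 0.066). The change of COL12A1 was, on the log2 scale, 5.87 without HER2R library 1. Without MKN45 library 1, MKN45 kept 1 count of ADAM28, and no fold is given.

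At the cell surface and cytoskeleton, genes changed in both directions. Of 80 actin and myosin genes 9 rose and 6 fell (18.8% called), and of 15 integrins 2 rose. MSN, which encodes moesin, a linker of the cell membrane to actin, was at 18.7 and 17.5 CPM in MKN45, 172 and 252 CPM in HER2R and 73.1 and 86.4 CPM in CEAR (log2 fold change 3.55, SE 0.223, edgeR adjusted p = 0.00187). SVIL, the actin-bundling protein supervillin in the chromosome 10 stretch, was at 32.1 and 26.6 CPM in MKN45 and 96.3 and 83.8 CPM in HER2R (log2 fold change 1.62, SE 0.1704, edgeR adjusted p = 0.00522). MYO7B and MYO1A, myosins of the intestinal brush border, went down, MYO7B from 13.2 and 24.4 CPM in MKN45 to 0.382 and 0.638 CPM in HER2R (log2 fold change -5.19, edgeR adjusted p = 0.0175) and MYO1A from 18.1 and 43.6 CPM in MKN45 to 0.713 and 1.097 CPM in HER2R (log2 fold change -5.08, edgeR adjusted p = 0.0404). In both, MKN45 library 2 was the higher of its line, and both HER2R libraries lay far below. ICAM1, the adhesion ligand that T cells bind through the integrin LFA-1, was at 0.585 and 0.409 CPM in MKN45, 10.9 and 14.2 CPM in HER2R and 1.18 and 1.84 CPM in CEAR (log2 fold change 4.63, SE 0.368, edgeR adjusted p = 0.00263). TSPAN5, a tetraspanin that guides the protease ADAM10, was at 1.098 and 1.27 CPM in MKN45 and 12.5 and 16.7 CPM in HER2R (log2 fold change 3.62, edgeR adjusted p = 0.00281), and S100A16, a calcium-binding protein, at 179 and 188 CPM in MKN45 and 49.6 and 71.4 CPM in HER2R (log2 fold change -1.60, edgeR adjusted p = 0.0081). CEAR was at 1.37 and 0.989 CPM in TSPAN5 and at 101 and 115 CPM in S100A16. Actin and myosin genes had 23 higher and 13 lower with the block, and 2 to 9 and 0 to 6 with 1 library left out. For integrins these counts were 5 higher and 1 lower, and 0 to 3 and 0. MYO7B missed the threshold when MKN45 library 2 or HER2R library 1 or 2 was left out (edgeR adjusted p from 0.055 to 0.13). Leaving out any 1 library of HER2R or MKN45 took MYO1A above the threshold (edgeR adjusted p from 0.061 to 0.21).

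WNT signalling genes changed in both directions. Of 43 tested members 8 rose and 3 fell (25.6% called, median 0.283), and the falls were WNT16 and the transcription factors LEF1 and TCF7. Of the 3 falls 1 lies in a lowered chromosome stretch. The ligand WNT7B was at 10.03 and 12.7 CPM in MKN45, 149 and 104 CPM in HER2R and 28.8 and 18.1 CPM in CEAR (log2 fold change 3.48, SE 0.305, edgeR adjusted p = 0.00328). It rose while WNT16 fell, and LEF1, a transcription factor at the end of the pathway, was at 4.04 and 10.98 CPM in MKN45 and 0.153 and 0.587 CPM in HER2R (log2 fold change -4.32, SE 0.801, edgeR adjusted p = 0.0258). Of 52 BMP and TGF-beta pathway genes 6 rose and 3 fell (17.3% called). Both the largest rise and the largest fall among them were in secreted BMP antagonists, NOG and SOSTDC1. Of 28 NOTCH pathway genes 4 rose and 3 fell (25% called). DTX3, a ubiquitin ligase of the deltex family, was at 0.142 and 0.205 CPM in MKN45 and 4.76 and 4.16 CPM in HER2R (log2 fold change 4.69, edgeR adjusted p = 0.00263) and higher still in CEAR, at 8.58 and 9.89 CPM, while MAML2, a coactivator of the NOTCH complex in the chromosome 11 stretch, was at 18.99 and 17.7 CPM in MKN45 and 49.3 and 55.5 CPM in HER2R (log2 fold change 1.51, edgeR adjusted p = 0.00429). LFNG, a glycosyltransferase that modifies NOTCH, fell from 230.1 and 286 CPM in MKN45 to 106 and 101 CPM in HER2R (log2 fold change -1.31, edgeR adjusted p = 0.00784). WNT pathway genes had 16 higher and 8 lower with the block, and 2 to 9 and 1 to 3 with 1 library left out. For BMP and TGF-beta pathway genes these counts were 14 higher and 9 lower, and 1 to 4 and 1 to 2. For NOTCH pathway genes these counts were 7 higher and 5 lower, and 2 to 4 and 0 to 3. The call of LEF1 was lost without MKN45 library 2 or HER2R library 1 or 2 (edgeR adjusted p from 0.068 to 0.16). LFNG was no longer called with HER2R library 1 or 2 left out (edgeR adjusted p from 0.068 to 0.078).

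Targets of the Hippo pathway effectors YAP and TAZ were the list with the largest called share among those described here: 10 of 29 rose and 1 fell (37.9%, median 0.607). With the block 15 rose and 3 fell, and with single libraries left out 1 to 8 were called higher. F3, the coagulation starter tissue factor, was at 109.5 and 76.02 CPM in MKN45 and 293 and 400.03 CPM in HER2R (log2 fold change 1.90, SE 0.234, edgeR adjusted p = 0.00819). CYR61, a matricellular protein, was at 12.5 and 7.504 CPM in MKN45 and 91.2 and 54.7 CPM in HER2R (log2 fold change 2.86, SE 0.402, edgeR adjusted p = 0.0126). CTGF, its close relative and the usual companion target, went the other way, at 11.6 and 5.62 CPM in MKN45 and 0.5605 and 0.995 CPM in HER2R (log2 fold change -3.47, SE 0.656, edgeR adjusted p = 0.0267). Its members thus moved in both directions, and 3 of its 10 rises lie in the raised stretches of chromosomes 2 and 11. F3 missed the threshold when HER2R library 2 was left out (edgeR adjusted p = 0.057). Leaving out MKN45 library 2 or HER2R library 1 took CYR61 above the threshold (edgeR adjusted p from 0.056 to 0.074). The call of CTGF was lost without MKN45 library 1 or HER2R library 1 or 2 (edgeR adjusted p from 0.079 to 0.17).

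Growth factor genes had 6 rises and 2 falls among 30 tested FGF, IGF, VEGF and PDGF ligands and receptors (26.7% called). FGF2, the basic fibroblast growth factor, was at 3.91 and 5.93 CPM in MKN45, 40.99 and 67.5 CPM in HER2R and 1.18 and 1.64 CPM in CEAR (log2 fold change 3.47, SE 0.338, edgeR adjusted p = 0.00425). IGF2 was at 0.2303 and 0.546 CPM in MKN45 and 9.09 and 5.46 CPM in HER2R (log2 fold change 4.28, SE 0.508, edgeR adjusted p = 0.00758). FGFR3, a receptor for fibroblast growth factors, was at 35.5 and 38.6 CPM in MKN45, 8.15 and 7.45 CPM in HER2R and 28.1 and 42.8 CPM in CEAR (log2 fold change -2.25, SE 0.235, edgeR adjusted p = 0.00501). FGF2 and IGF2 thus rose while FGFR3 fell, and CEAR overlapped MKN45 in FGFR3 and lay below it in FGF2. NRP1, a coreceptor for VEGF and semaphorins in the chromosome 10 stretch, was at 33.98 and 33.5 CPM in MKN45 and 104 and 128 CPM in HER2R (log2 fold change 1.78, SE 0.145, edgeR adjusted p = 0.00272), and its relative NRP2 at 2.11 and 2.87 CPM in MKN45 and 15.1 and 12.5 CPM in HER2R (log2 fold change 2.48, SE 0.301, edgeR adjusted p = 0.00806). NRP2 was nearly absent from CEAR, at 0.385 and 0.157 CPM. Growth factor ligands and receptors had 8 higher and 5 lower with the block, and 2 to 4 and 0 to 3 with 1 library left out. FGFR3 was no longer called with HER2R library 2 left out (edgeR adjusted p = 0.057). NRP2 missed the threshold when HER2R library 1 or 2 was left out (edgeR adjusted p from 0.054 to 0.067). The log2 fold change of IGF2 was 4.96 without MKN45 library 2.

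Among receptors and second messenger genes both directions occurred. Of 74 G protein-coupled receptors 5 rose and 5 fell, of 51 cytokine and chemokine genes 5 rose and 2 fell, and of 34 TNF ligands and receptors 5 rose and 1 fell. The called shares were 13.5%, 13.7% and 17.6%, against 9.74% over all tested genes. The dopamine receptor DRD1 was at 1.399 and 1.001 CPM in MKN45 and 20.3 and 13.5 CPM in HER2R (log2 fold change 3.80, edgeR adjusted p = 0.0028). In CEAR it was at 10.8 and 10.2 CPM, and it did not pass the test between HER2R and CEAR (edgeR adjusted p = 0.129). IL31RA, a receptor chain of the interleukin 6 family, was at 0.496 and 0.478 CPM in MKN45 and 19.8 and 14.5 CPM in HER2R (log2 fold change 5.13, edgeR adjusted p = 0.00234), the chemokine receptor CCR6 at 5.62 and 5.98 CPM in MKN45 and 0.153 and 0.179 CPM in HER2R (log2 fold change -5.10, edgeR adjusted p = 0.00234) and the TNF receptor family member TNFRSF19 at 3.596 and 2.11 CPM in MKN45 and 51.3 and 27.7 CPM in HER2R (log2 fold change 3.77, edgeR adjusted p = 0.0076). Inside the cell, RGS2, which turns off Gq-coupled receptors, was at 1.82 and 1.66 CPM in MKN45, 53.5 and 59.2 CPM in HER2R and 2.22 and 1.17 CPM in CEAR (log2 fold change 5.01, SE 0.296, edgeR adjusted p = 0.00173). PLCB4, the phospholipase that Gq activates, was at 0.461 and 0.387 CPM in MKN45 and 18.01 and 16.5 CPM in HER2R (log2 fold change 5.33, SE 0.437, edgeR adjusted p = 0.00276). Phosphodiesterases, which break down cyclic nucleotides, and adenylyl cyclases, with their anchor proteins, had 6 rises and 3 falls among 47 (19.1% called), including PDE10A at 3.68 and 3.77 CPM in MKN45 and 21.7 and 24.1 CPM in HER2R (log2 fold change 2.62, edgeR adjusted p = 0.00206) and PDE4B at 0.0531 and 0.136 CPM in MKN45 and 1.68 and 2.04 CPM in HER2R (log2 fold change 4.33, edgeR adjusted p = 0.00418). G protein-coupled receptors had 11 higher and 12 lower with the block, and 2 to 4 and 1 to 5 with 1 library left out. For cytokine and chemokine genes these counts were 14 higher and 7 lower, and 1 to 5 and 1 to 2. For TNF ligands and receptors these counts were 12 higher and 6 lower, and 1 to 5 and 0 to 1. For phosphodiesterases and cyclases these counts were 15 higher and 11 lower, and 3 and 0 to 3. Without MKN45 library 2, MKN45 kept 3 counts of PDE4B, and no fold is given.

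**Figure D5:**
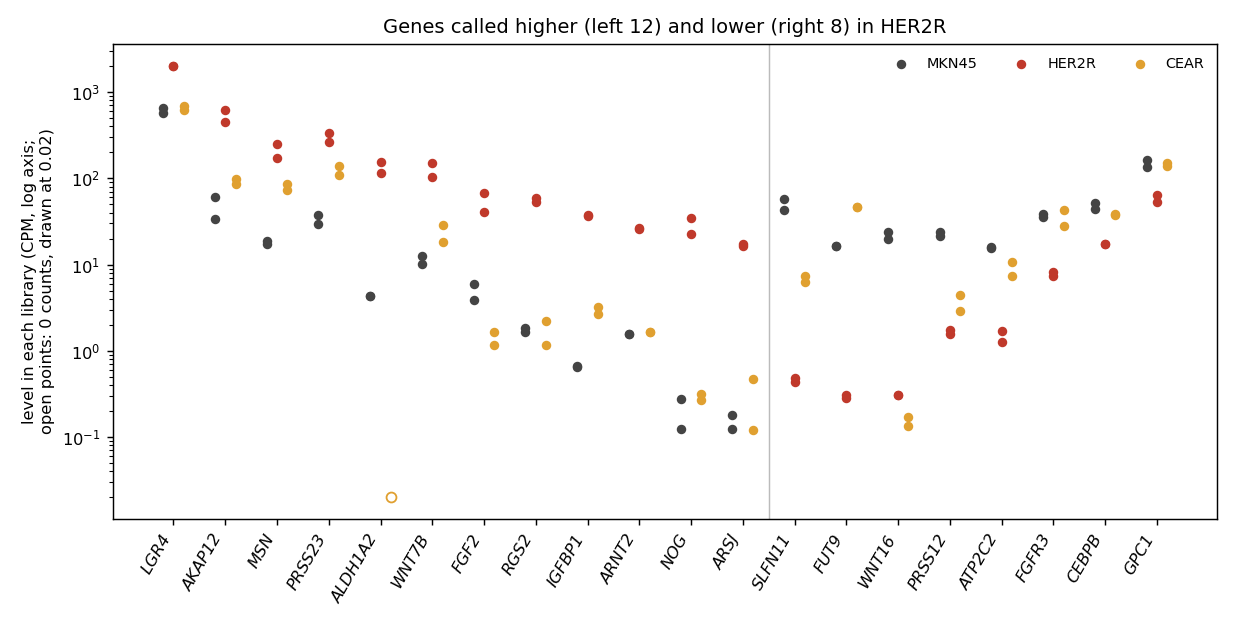
Levels of 20 called genes in each library (CPM, log axis), 12 that rose on the left and 8 that fell on the right, with both libraries of MKN45, HER2R and CEAR as separate points and open points for 0 counts. In every gene shown both HER2R libraries lie beyond both MKN45 libraries, and the lines did not overlap in 57.1% of all tested genes. NOG, ARSJ, SLFN11, FUT9 and WNT16 were named by a rule that required this. The CEAR points show which genes CEAR shares.

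Ion channel genes changed in both directions. Of 38 potassium channel genes 4 rose and 4 fell (21.1% called), and of 70 sodium, calcium, chloride and TRP channel and junction channel genes 6 rose and 5 fell. KCNMB4, an accessory subunit of the calcium-activated BK channel, was at 0.337 and 0.7504 CPM in MKN45 and 12.8 and 10.3 CPM in HER2R (log2 fold change 4.45, edgeR adjusted p = 0.00313), and KCNJ12, an inward rectifier, at 4.82 and 4.34 CPM in MKN45 and 23.6 and 27.1 CPM in HER2R (log2 fold change 2.47, edgeR adjusted p = 0.00366). KCNH8, a voltage-gated channel, was at 4.55 and 6.16 CPM in MKN45 and 0.331 and 0.357 CPM in HER2R (log2 fold change -3.94, edgeR adjusted p = 0.00414). Gap junction genes moved apart: GJC1, which encodes connexin 45, rose from 2.25 and 1.93 CPM in MKN45 to 17.99 and 23.03 CPM in HER2R (log2 fold change 3.29, SE 0.291, edgeR adjusted p = 0.00342), whereas GJB1, which encodes the epithelial connexin 32, fell from 41.9 and 68.04 CPM in MKN45 to 10.6 and 11.4 CPM in HER2R (log2 fold change -2.32, SE 0.404, edgeR adjusted p = 0.0227). Of 40 aquaporins and ion pumps 5 rose and 4 fell, and the Golgi calcium and manganese pump ATP2C2 was at 15.7 and 16.1 CPM in MKN45, 1.27 and 1.68 CPM in HER2R and 7.37 and 10.6 CPM in CEAR (log2 fold change -3.43, SE 0.292, edgeR adjusted p = 0.00308). Among 215 solute carriers 12 rose and 16 fell. Potassium channels had 8 higher and 6 lower with the block, and 3 and 1 to 4 with 1 library left out. For the other channel list these counts were 18 higher and 12 lower, and 1 to 5 and 0 to 5. For aquaporins and ion pumps these counts were 7 higher and 10 lower, and 0 to 2 and 1 to 5. For solute carriers these counts were 32 higher and 55 lower, and 3 to 8 and 0 to 13. Leaving out MKN45 library 2 or HER2R library 1 or 2 took GJB1 above the threshold (edgeR adjusted p from 0.075 to 0.15). KCNMB4 had a log2 fold change of 5.08 without MKN45 library 2.

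Families of transcription factors ranged in called share from below that of all tested genes to well above it, and the balance of rises and falls varied. Counts of rises and falls were 12 and 5 of 90 homeobox genes outside the HOX clusters, 7 and 1 of 42 basic helix-loop-helix genes, 5 and 1 of 29 forkhead genes, 4 and 1 of 41 ETS and AP-1 genes, and 2 and 0 of 10 SOX genes. They were 0 and 2 of 32 HOX genes, 1 and 2 of 24 GATA, KLF and SP genes, and 2 and 2 of 33 nuclear receptors. Over all tested genes 9.74% were called. The called share was 6.25% for HOX genes, 12.1% for nuclear receptors, 12.2% for ETS and AP-1 genes and 12.5% for GATA, KLF and SP genes. It was 18.9% for the other homeobox genes, 19% for basic helix-loop-helix, 20% for SOX and 20.7% for forkhead genes. Homeobox genes outside the HOX clusters had 19 higher and 13 lower with the block, and 5 to 11 and 1 to 4 with 1 library left out. For basic helix-loop-helix genes these counts were 15 higher and 8 lower, and 2 to 7 and 0 to 2. For forkhead genes these counts were 8 higher and 3 lower, and 2 to 5 and 0 to 1. For ETS and AP-1 genes these counts were 12 higher and 8 lower, and 1 to 3 and 0 to 1. For SOX genes these counts were 6 higher and 0 lower, and 0 to 1 and 0. For HOX genes these counts were 4 higher and 3 lower, and 0 and 0 to 1. For GATA, KLF and SP genes these counts were 5 higher and 6 lower, and 0 to 1 and 0 to 2. For nuclear receptors these counts were 6 higher and 8 lower, and 0 to 1 and 0 to 1. ARNT2, the dimer partner of hypoxia-inducible factors and other PAS proteins, was at 1.56 and 1.55 CPM in MKN45, 25.8 and 26.7 CPM in HER2R and 1.66 and 1.66 CPM in CEAR (log2 fold change 4.07, SE 0.2096, edgeR adjusted p = 0.000997). PRRX2, a homeobox factor of mesenchyme, was at 0.142 and 0.341 CPM in MKN45 and 6.62 and 8.57 CPM in HER2R (log2 fold change 5.02, SE 0.426, edgeR adjusted p = 0.00308), and ZEB1, a repressor of E-cadherin that drives epithelial to mesenchymal transition, at 0.177 and 0.568 CPM in MKN45 and 6.95 and 4.59 CPM in HER2R (log2 fold change 4.02, SE 0.505, edgeR adjusted p = 0.00868). PRRX2 and ZEB1 were near 0 in MKN45 and low in CEAR, at 0.747 and 0.629 and 0.626 and 0.786 CPM. The AP-1 subunit JUN was at 84.8 and 84.6 CPM in MKN45, 212 and 242 CPM in HER2R and 168 and 194 CPM in CEAR (log2 fold change 1.42, SE 0.1402, edgeR adjusted p = 0.00428). Falls included the homeobox factor MSX2, from 73.2 and 69.3 CPM in MKN45 to 28.6 and 28.7 CPM in HER2R (log2 fold change -1.32, edgeR adjusted p = 0.00422), and CEBPB, a basic leucine zipper factor of inflammation and stress, from 44.3 and 51.9 CPM in MKN45 to 17.1 and 17.1 CPM in HER2R (log2 fold change -1.49, edgeR adjusted p = 0.00427). In JUN, MSX2 and CEBPB the libraries of MKN45 and HER2R did not overlap, as in 57.1% of all tested genes. CEAR lay nearer to HER2R in JUN and MSX2 and nearer to MKN45 in CEBPB. The call of ZEB1 was lost without HER2R library 1 (edgeR adjusted p = 0.062). For PRRX2 the log2 fold change was 5.71 without MKN45 library 2. ZEB1 changed on the log2 scale by 3.34 without MKN45 library 1 and 5.00 without MKN45 library 2.

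Most zinc finger genes that changed fell. Of 420 tested ZNF genes 28 fell and 4 rose, and their called share of 7.62% was below that of all genes. Of the falls 15 lie on chromosome 19, where 193 members lie, and 4 on chromosome 7, where 27 lie. Many ZNF genes encode KRAB-type repressors, which sit in clusters and silence transposable elements and nearby genes. ZNF93 was at 1.63 and 2.25 CPM in MKN45 and had 0 counts in HER2R, at least 49.7-fold lower, with 0.0241 and 0.0225 CPM in CEAR (edgeR adjusted p = 0.00371). ZNF415 was at 2.11 and 3.12 CPM in MKN45 and had 3 counts in HER2R, a ratio of 66.67 (22.56 to 325.4), and 0 counts in CEAR (edgeR adjusted p = 0.00414). With the block 64 fell and 48 rose, so that the direction of the list was less one-sided there, and DESeq2 called 50 lower and 21 higher. With single libraries left out 5 to 25 fell and 0 to 3 rose. Zinc finger genes of a cluster resemble each other, and reads may be split between them. ZNF415 was no longer called with HER2R library 1 or 2 left out (edgeR adjusted p = 0.1).

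Genes of retinoic acid metabolism changed in opposite directions. Retinaldehyde dehydrogenases make retinoic acid from retinaldehyde, and CYP26 enzymes break it down. In contrast to the fall of ALDH1A1 given above, ALDH1A2 was at 4.34 and 4.298 CPM in MKN45, 115 and 155 CPM in HER2R and 0 counts in CEAR (log2 fold change 4.96, SE 0.221, edgeR adjusted p = 0.00173). ALDH1A3 was at 3.28 and 4.98 CPM in MKN45, 33.4 and 36.6 CPM in HER2R and 30.5 and 35.8 CPM in CEAR (log2 fold change 3.09, SE 0.2398, edgeR adjusted p = 0.00236). CYP26B1 was at 2.36 and 2.21 CPM in MKN45, 13.96 and 11.5 CPM in HER2R and 13.2 and 9.15 CPM in CEAR (log2 fold change 2.47, SE 0.275, edgeR adjusted p = 0.00607). In ALDH1A3 and CYP26B1 the libraries of HER2R and CEAR lay close together, with fitted differences of 0.08 and 0.19 (edgeR adjusted p = 0.839 and 0.647), while ALDH1A2 was present in HER2R and had no count in CEAR. Over the whole list of 58 aldehyde, aldo-keto and short-chain dehydrogenases 3 rose and 7 fell (17.2% called). ALDH3A1, an aldehyde dehydrogenase of barrier epithelia, was among the falls, from 198 and 227 CPM in MKN45 to 37.1 and 62.9 CPM in HER2R (log2 fold change -2.09, edgeR adjusted p = 0.0127). The dehydrogenase list had 6 higher and 16 lower with the block, and 2 to 3 and 1 to 6 with 1 library left out. CYP26B1 missed the threshold when HER2R library 1 was left out (edgeR adjusted p = 0.051). Leaving out MKN45 library 2 or HER2R library 1 took ALDH3A1 above the threshold (edgeR adjusted p from 0.051 to 0.066).

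Most genes of mitochondrial energy metabolism that changed fell. Of 73 subunits of oxidative phosphorylation 11 fell and 1 rose (16.4% called, median -0.224), and of 29 tricarboxylic acid cycle enzymes 4 fell (median -0.264). With the block 27 subunits and 11 enzymes fell and 4 and 1 rose. The falls included the ATP synthase subunits ATP5A1, ATP5E, ATP5F1, ATP5G1, ATP5G2 and ATP5G3, named after their values were seen. At least 2 of the 11, UQCRC2 and NDUFB2, lie in the lowered stretches of chromosomes 16 and 7, and members without a position could not be counted. ATP5G1, a c subunit of the ring that protons turn, was at 30.2 and 19.5 CPM in MKN45 and 7.72 and 6.25 CPM in HER2R (log2 fold change -1.83, SE 0.261, edgeR adjusted p = 0.0127). UQCRC2, a core protein of complex III, was at 201 and 182 CPM in MKN45 and 101 and 100.03 CPM in HER2R (log2 fold change -0.93, SE 0.135, edgeR adjusted p = 0.0134). IDH1, the cytosolic isocitrate dehydrogenase counted with this cycle, was at 209 and 157 CPM in MKN45 and 78.4 and 64.1 CPM in HER2R (log2 fold change -1.36, SE 0.207, edgeR adjusted p = 0.0151). With single libraries left out 0 to 6 subunits and 0 to 3 enzymes were called lower. The call of ATP5G1 was lost without HER2R library 1 or 2 (edgeR adjusted p from 0.079 to 0.1). UQCRC2 and IDH1 were no longer called with MKN45 library 1 or HER2R library 1 or 2 left out (edgeR adjusted p from 0.055 to 0.12).

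Most of the lysosomal and gastric genes that changed also fell. Of 63 lysosomal genes 8 fell (12.7% called, median -0.301), 3 of the 8 in lowered stretches, among them ATP6V0E2, a subunit of the proton pump that acidifies the lysosome, at 30.04 and 27.3 CPM in MKN45 and 8.92 and 9.13 CPM in HER2R (log2 fold change -1.67, SE 0.177, edgeR adjusted p = 0.00531). Of 37 aminoacyl-tRNA synthetases 4 fell and 1 rose (13.5% called, median -0.354). Of these, 2 falls lie in lowered stretches and the rise in a raised one. WARS, which loads tryptophan and is induced by interferon gamma, lies in the chromosome 14 stretch and was at 136 and 120.0 CPM in MKN45 and 51.8 and 55.6 CPM in HER2R (log2 fold change -1.26, SE 0.128, edgeR adjusted p = 0.00491). Of 51 genes of gastric and intestinal differentiation 5 fell and 1 rose (11.8% called, median -0.507), with 2 of the 5 falls in lowered stretches. VIL1, the brush border protein villin, was at 205 and 192 CPM in MKN45 and 108 and 66.9 CPM in HER2R (log2 fold change -1.18, SE 0.234, edgeR adjusted p = 0.0302), and the rise was in SOX2, a stem cell and foregut factor, from 9.99 and 10.6 CPM in MKN45 to 26.3 and 24.5 CPM in HER2R (log2 fold change 1.30, SE 0.289, edgeR adjusted p = 0.041). The median of this list was thus below 0, while the summed marker level given above overlapped between MKN45 and HER2R. Lysosomal genes had 5 higher and 25 lower with the block, and 0 and 0 to 7 with 1 library left out. For aminoacyl-tRNA synthetases these counts were 1 higher and 18 lower, and 0 and 0 to 2. For gastric and intestinal genes these counts were 4 higher and 25 lower, and 0 to 1 and 0 to 6. ATP6V0E2 missed the threshold when HER2R library 1 or 2 was left out (edgeR adjusted p from 0.055 to 0.056). Leaving out HER2R library 1 took WARS above the threshold (edgeR adjusted p = 0.055). The call of VIL1 was lost without MKN45 library 1 or 2 or HER2R library 2 (edgeR adjusted p from 0.087 to 0.12). SOX2 was no longer called with any 1 library of HER2R or MKN45 left out (edgeR adjusted p from 0.13 to 0.19).

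Several lists of core machinery had few calls or none in the edgeR fit without the block, against 9.74% called over all tested genes. With the block 33.7% of all tested genes were called, 16.2% higher and 17.5% lower. Of 68 mitosis genes none was called, while 4 were lower at an unadjusted p under 0.05, DESeq2 called 1 lower, and the block called 19 higher and 9 lower. Of 46 proteasome subunits none was called, with 6 higher and 8 lower at an unadjusted p under 0.05, 3 and 3 by DESeq2, and 6 and 9 with the block. Of 83 cytosolic ribosomal proteins 2 rose, RPS7 and RPL27, of 95 spliceosome and hnRNP genes 1 rose and 2 fell, and of 55 replication-dependent histones 1 rose. Ribosomal proteins had 17 higher and 2 lower with the block, and 0 and 0 with 1 library left out. For spliceosome genes these counts were 13 higher and 9 lower, and 0 and 0 to 1. For histones these counts were 3 higher and 3 lower, and 0 to 2 and 0. Sterol synthesis and uptake genes had a median of -0.863 over 26 members and mucins and trefoil factors one of -1.04 over 12, yet none of either list was called. At an unadjusted p under 0.05, 3 sterol genes were lower, and among mucins and trefoil factors 1 was higher and 1 lower. DESeq2 called 1 lower in each list, and the block called 13 lower and 1 higher among sterol genes and 5 lower and 1 higher among mucins and trefoil factors. The block's lower calls in both lists, like its higher calls among mitosis genes, were thus above its shares over all tested genes. With 1 library left out 0 to 3 sterol genes were lower.

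Genes tied to stress and survival changed in both directions. Of 27 ATF4 and amino acid response targets 4 rose and 3 fell, among them GDF15 and CEBPB given above. Of the 3 falls 1 lies in a lowered chromosome stretch. Of 38 p53 targets 2 rose and 5 fell (median -0.359). PLK2, a kinase induced by p53 and other stress, was at 38.4 and 39.3 CPM in MKN45, 153 and 187 CPM in HER2R and 21.3 and 29.4 CPM in CEAR (log2 fold change 2.13, SE 0.194, edgeR adjusted p = 0.00369), and SPATA18, which clears damaged mitochondria, was at 10.8 and 11.3 CPM in MKN45 and 1.86 and 0.714 CPM in HER2R (log2 fold change -3.10, SE 0.431, edgeR adjusted p = 0.0122). Among 85 DNA repair genes 4 rose and 4 fell (9.41%, near the background), with SLFN11 the largest fall. Of these, 1 rise lies in a raised chromosome stretch and 2 falls in lowered ones. ERCC1, a nuclease subunit of nucleotide excision repair, was at 24.96 and 26.6 CPM in MKN45 and 53.3 and 59.2 CPM in HER2R (log2 fold change 1.13, edgeR adjusted p = 0.00868), and MRE11A, a nuclease that senses broken ends, at 57.8 and 57.5 CPM in MKN45 and 123 and 118 CPM in HER2R (log2 fold change 1.07, edgeR adjusted p = 0.00561). Both HER2R libraries lay above both MKN45 libraries in each, and the lines did not overlap in 57.1% of all tested genes. PTGS2, the inducible cyclooxygenase that makes prostaglandins, was at 40.3 and 32.5 CPM in MKN45, 193 and 228 CPM in HER2R and 35.5 and 80.4 CPM in CEAR (log2 fold change 2.53, SE 0.376, edgeR adjusted p = 0.0141). ATF4 targets had 4 higher and 6 lower with the block, and 0 to 4 and 1 to 3 with 1 library left out. For p53 targets these counts were 5 higher and 15 lower, and 1 and 0 to 2. For DNA repair genes these counts were 8 higher and 14 lower, and 0 to 3 and 1. SPATA18 missed the threshold when HER2R library 2 was left out (edgeR adjusted p = 0.069). Leaving out HER2R library 1 or 2 took ERCC1 above the threshold (edgeR adjusted p from 0.055 to 0.078). The call of MRE11A was lost without HER2R library 1 (edgeR adjusted p = 0.053). PTGS2 was no longer called with any 1 library of HER2R or MKN45 left out (edgeR adjusted p from 0.053 to 0.088). The change of SPATA18 was, on the log2 scale, -3.95 without HER2R library 1.

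Immune genes of the tumour cell rose in some members and fell in others. Of 59 apolipoprotein L, GBP, IFIT, OAS and other interferon-induced genes 7 rose and 5 fell (20.3% called, median -0.201), and of 41 genes of nucleic acid sensing 4 rose and 1 fell (12.2% called). Over all tested genes 9.74% were called. BST2, which tethers budding viruses to the cell, was at 5.704 and 2.32 CPM in MKN45, 42.4 and 49.00 CPM in HER2R and 37.9 and 41.4 CPM in CEAR (log2 fold change 3.49, SE 0.383, edgeR adjusted p = 0.00588). APOL1, a pore-forming apolipoprotein, was at 2.96 and 3.34 CPM in MKN45, 26.95 and 47.1 CPM in HER2R and 9.76 and 15.5 CPM in CEAR (log2 fold change 3.56, SE 0.371, edgeR adjusted p = 0.00501). DHX58, a cytosolic RNA sensor, was at 0.195 and 0.182 CPM in MKN45 and 4.05 and 3.62 CPM in HER2R (log2 fold change 4.32, SE 0.416, edgeR adjusted p = 0.0042). BST2 did not pass the test between HER2R and CEAR (difference 0.20, edgeR adjusted p = 0.716), whereas APOL1 and DHX58 were higher in HER2R (differences 1.55 and 1.88, edgeR adjusted p = 0.0312 and 0.0193). IL32, a proinflammatory cytokine, was at 0.248 and 1.77 CPM in MKN45, 43.1 and 47.3 CPM in HER2R and 2.67 and 5.73 CPM in CEAR (log2 fold change 5.56, SE 0.709, edgeR adjusted p = 0.009). TRIM14, an adaptor of antiviral signalling, was among the falls, from 29.9 and 32.6 CPM in MKN45 to 8.02 and 12.96 CPM in HER2R (log2 fold change -1.57, SE 0.305, edgeR adjusted p = 0.0284). Of 30 genes for B7 and lectin ligands and other genes that act on T cells 3 rose and 1 fell (13.3% called). The largest rise was in ICAM1, the adhesion ligand given above that T cells bind. The interferon-induced list had 12 higher and 14 lower with the block, and 2 to 7 and 1 to 4 with 1 library left out. For nucleic acid sensing genes these counts were 6 higher and 3 lower, and 1 to 4 and 0 to 1. For B7 and lectin ligand genes these counts were 8 higher and 2 lower, and 1 to 3 and 0 to 1. IL32 missed the threshold when HER2R library 1 or 2 was left out (edgeR adjusted p from 0.054 to 0.059). Leaving out any 1 library of HER2R or MKN45 took TRIM14 above the threshold (edgeR adjusted p from 0.074 to 0.15). The log2 fold change of BST2 was 4.30 without MKN45 library 1. IL32 had a log2 fold change of 4.67 without MKN45 library 1 and 7.49 without MKN45 library 2.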

How the data were processed

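Total RNA of MKN45, HER2R and CEAR cells, 2 libraries per line, was depleted with Ribo-Zero Plus and sequenced by strand, per the labels' protocols. The authors deposited 1 table of raw whole-number counts per gene symbol, and each of its columns matched a library, with 0 left over. The genome build GRCh38 and the tool limma appear in the list of names taken from the submitters' processing notes. For aligner, counter and annotation, names were not given in the sources used here.

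Differences were tested by the quasi-likelihood test of edgeR 4.0.16 (R 4.3.3) on counts of the 6 libraries together, with the line as the only term. Of 29744 symbols, filterByExpr dropped 14786 and 14958 were tested, after scaling by TMM. The spread had 3 residual degrees of freedom (2 with the block) and 3.51 prior ones. HER2R was contrasted with MKN45 and with CEAR, 2 contrasts that share the HER2R libraries. Genes with a Benjamini-Hochberg adjusted p under 0.05 were called. Each SE was derived from the F statistic, as the absolute fitted change divided by its root. One count is worth 0.0177 to 0.0255 CPM. Where a line had 0 counts the fold is a lower bound from a floor of 3 counts over the line, and 1 to 3 counts gave a ratio with a 95% counting interval, which covers counting error only.

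What library numbers 1 and 2 stand for is not in the labels. The change from number 1 to number 2 correlated across genes by 0.378 (MKN45 with HER2R), 0.545 (MKN45 with CEAR) and 0.355 (HER2R with CEAR). All 3 exceed 0.1, so the fit with the number as a block is printed beside the counts of calls by level, chromosome, stretch and gene list. No library was a copy of its partner: the chi-square of their counts, divided by its degrees of freedom, was 127.5 for MKN45, 60.7 for HER2R and 90.0 for CEAR.

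The comparison, the 85 gene lists and the naming rule were chosen with earlier results of these data known. The rule named the 12 largest called changes in each direction among genes reaching 5 CPM without overlap of libraries, and the 10 largest called differences in CPM. It also named up to 4 called members per direction of lists with at least 8 tested members and a called share of 1.5 times the overall one, up to 2 of the remaining lists, and both antigens. Of the 339 genes it picked, some are not reported here and the text gives values for a part of the others. Positions come from GENCODE 29 and promoters from RefSeq (GRCh38.p14). The procedure was tested on simulated data. As alternatives the model was refitted with the block, RLE factors, unscaled library sizes, no filter, a filter at 1 CPM, the compared lines alone with or without the block, a threshold fold of 1.5, or 1 library left out. DESeq2 1.42.0 and limma-voom (limma 3.58.1) replaced edgeR in other alternatives, and edgeR's legacy method was an alternative chosen after seeing the data.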

Additional observations from a re-analysis of the deposited data

How the results depend on the processing

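At 0.0177 to 0.0255 CPM per count, counting error bears mainly on genes under 1 CPM, and having 2 libraries per line limits the precision of every test. With the replicate block, 2419 genes were higher and 2621 lower in HER2R than in MKN45 and 2942 higher and 2775 lower than in CEAR. With the compared lines alone and the replicate block the counts were 2114 and 2303 against MKN45 and 3082 and 2961 against CEAR. DESeq2 gave 1361 and 1459 against MKN45 and 1783 and 1649 against CEAR, and a test against a fold of 1.5 gave 260 and 147 against MKN45 and 280 and 155 against CEAR. Leaving out 1 library, which takes the spread of its partner from the other lines, gave counts that ran from 140 to 587 higher and 49 to 549 lower against MKN45, and from 75 to 973 higher and 28 to 883 lower against CEAR. The cause of these differences was not tested. RLE factors, library size alone, no filter, the filter at 1 CPM, limma-voom, the compared lines alone and the legacy method kept every count within 1.5 times of its reported value.

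Of the 1457 genes called, 1457 were called with the block, 1434 by DESeq2, 1294 by limma-voom, 1053 with no filter and 407 against a fold of 1.5, and every gene with a value kept its direction in each setting. Of 108 called genes with values in the text, 66 to 106 stayed called with 1 library left out and 86 against a fold of 1.5. CEACAM5, which was not called, ranged from -0.73 to 0.72 on the log2 scale with 1 library left out and changed sign without MKN45 library 2 (0.72) or HER2R library 1 (0.41). ERBB2 was called with the compared lines alone and the replicate block (-0.45, edgeR adjusted p = 0.0341) and in no other setting.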
